A study of Arabidopsis thaliana with 15 samples.

Results

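The early pulse genes of high light are 87 Arabidopsis thaliana genes, of 21593 listed, whose transcripts were abundant after 15 min of high light and had declined both when the light stayed on for 60 min and when it had been lowered again. They were chosen from the means of 3 libraries per condition: a mean of at least 100 normalized counts at HL15, at least 4 times the growth light mean plus 1, and at least 2 times the means of both HL60 and R15. A total of 229 genes met the minimum and the rise over growth light. Of these, 130 were at least 2 times higher at HL15 than at HL60 and 131 were at least 2 times higher at HL15 than at R15, and the 87 genes met both conditions. The values of GL, HL15, HL60 and R15 chose the genes and are therefore given as a description, with no test. The R60 libraries took no part in the choice and are the ones that were tested.

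RNA came from leaves of wild type Col-0 plants, with 3 libraries per condition. The GL plants were kept in growth light, with a photon flux of 100 μmol m-2 s-1. High light, with a flux of 1000 μmol m-2 s-1, lasted 15 min for HL15 and 60 min for HL60. For R15 and R60, 60 min of high light was followed by recovery in growth light, of 15 min for R15 and 60 min for R60. There was a single GL group, so the effects of light and of the hour of harvest cannot be told apart.

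Sudden strong light loads the photosynthetic apparatus and produces reactive oxygen species, and plant cells answer within minutes by transcribing stress genes. A large part of this answer overlaps with the heat stress response, in which heat shock factors bind repeated GAA and TTC units in promoters and switch on chaperones, which keep proteins folded or refold them. Other rapid genes encode transcriptional regulators, ubiquitin ligases that mark proteins for degradation, enzymes that make protective metabolites, and immune receptors.

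The annotation placed 32 of the 87 genes in the chaperone system, as 18 heat shock proteins, 9 co-chaperones and 5 heat shock factors. The other 55 comprised 11 genes of ubiquitin and proteolysis, 11 of signalling and defence, 10 of metabolism and transport, 6 transcriptional regulators, 2 of RNA and the nucleus and 15 of other or unknown function. They lay on all 5 chromosomes, with 24 on chromosome 1 and 10 on chromosome 2.

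The promoters of several of these genes hold letter matches to heat shock elements, in the chaperone system and outside it. An element was defined as GAANNTTC or TTCNNGAA, in which N is any base. The stretches below lie upstream of the annotated gene start in TAIR10.1 (RefSeq), read 5′ to 3′ on the strand of the gene, with the elements in capitals. Adjacent elements that share a unit run together. Of the stretches printed in both groups, those of HSFA2, HSFA7A, AT1G71000 and DREB2A hold a run of at least 3 units. The other stretches hold elements of 2 units only. The first group comes from the chaperone system and shows repeated elements in front of HSFA2 (chr2:11135496-11135623, plus strand), HSFA7A (chr3:19264909-19265051, plus strand) and the DnaJ gene AT1G71000 (chr1:26770209-26770348, minus strand).
HSFA2: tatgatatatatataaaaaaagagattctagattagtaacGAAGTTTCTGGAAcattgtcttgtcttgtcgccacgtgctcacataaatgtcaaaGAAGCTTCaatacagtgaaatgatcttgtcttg
HSFA7A: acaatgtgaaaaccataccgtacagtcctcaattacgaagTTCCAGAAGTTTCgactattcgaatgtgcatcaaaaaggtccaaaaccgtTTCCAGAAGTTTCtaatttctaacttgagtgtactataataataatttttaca
AT1G71000: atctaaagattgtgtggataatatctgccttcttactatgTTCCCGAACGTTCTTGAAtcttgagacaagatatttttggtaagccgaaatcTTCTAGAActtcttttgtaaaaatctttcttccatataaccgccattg

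The second group comes from genes outside the chaperone system: the transcription factors DREB2A (chr5:1602001-1602093, plus strand) and ZAT6 (chr5:1217386-1217473, minus strand), the galactinol synthase GolS2 (chr1:21207311-21207398, plus strand), the potassium transporter KUP6 (chr1:26481678-26481765, minus strand), the ankyrin repeat gene AT4G03450 (chr4:1531895-1531982, minus strand) and the peptidase-like gene AT3G07090 (chr3:2244834-2244991, minus strand).
DREB2A: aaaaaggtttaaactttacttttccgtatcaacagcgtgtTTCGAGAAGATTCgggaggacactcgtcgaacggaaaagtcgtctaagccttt
ZAT6: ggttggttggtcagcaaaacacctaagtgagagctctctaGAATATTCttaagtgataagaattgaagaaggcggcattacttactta
GolS2: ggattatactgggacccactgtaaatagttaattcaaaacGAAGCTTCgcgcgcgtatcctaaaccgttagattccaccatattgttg
KUP6: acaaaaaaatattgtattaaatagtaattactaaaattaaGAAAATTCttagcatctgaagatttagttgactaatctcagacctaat
AT4G03450: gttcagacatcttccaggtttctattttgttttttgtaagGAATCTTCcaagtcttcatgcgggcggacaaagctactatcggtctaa
AT3G07090: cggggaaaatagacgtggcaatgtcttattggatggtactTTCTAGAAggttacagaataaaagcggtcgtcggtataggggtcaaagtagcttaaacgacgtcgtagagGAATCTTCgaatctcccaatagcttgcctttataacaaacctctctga

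In the 250 bases upstream of the annotated start, 25 of the 87 genes (28.7%) held such an element, against 16.2% of 20338 genes tested. In a second window, the 500 bases before the start codon, which take in the leader and, where that is short, bases upstream of the gene start, 61 of the 87 genes (70.1%) held one, against 35% of 20337 genes. In the second window the share was 78.1% of the 32 chaperone system genes and 65.5% of the 55 other genes. A run of 3 such units was found there in 20.7% of the 87 genes, in 14.5% of the 55 genes outside the chaperone system and in 1.38% of all genes. In the first window it was found in 5 of the 87 genes (5.75%), 2 of the 55 (3.64%) and 0.433% of all genes. The element printed for DREB2A lies outside the second window, as does that of AT1G55530. The second window was added after the first had been counted, and these shares are descriptions.

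Outside the chaperone system, 10 of 55 genes (18.2%) had CGCGTT, the core of the rapid stress response element, on either strand in the 500 bases before the start codon. None of the 32 chaperone system genes had it, and the share of all genes was 6.07%. In the 250 bases upstream of the gene start the difference was smaller, with 3 of the 55 genes (5.45%) against 2.96% of all genes. The 10 genes were MBF1C, AT4G09150, AT5G25450, AT5G10695, AT1G66090, ASG1, AT1G03070, SNRK2.3, AT5G41750 and AT3G07150. In the 500 bases before the start codon, the G-box CACGTG was found in 14.9% of the 87 genes and 10.4% of all genes. The drought-responsive core ACCGAC was in 11.5% and 9.39%, and the GCC box GCCGCC in 4.6% and 5.71%. The W-box core TTGACC was in 10.3% and 20.1%, and TATAAA in 74.7% and 61.1%, each on either strand. In the 250 bases upstream of the gene start, CACGTG was in 9.2% and 7.5%, and ACCGAC in 8.05% and 5.47%. There GCCGCC was in 3.45% and 1.97%, TTGACC in 9.2% and 12.1%, and TATAAA in 51.7% and 45.2%. A letter match is not a bound site, and no match says only that these letters are not in the window.

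The early pulse genes had few exons. In 39 of the 87 genes (44.8%) the first transcript had 1 or 2 exons, against 30.0% of all genes tested, and 21.8% had a single exon, against 16.2%. The median number of exons was 3 in these genes and 4 in all genes. The median transcript length differed less, at 1573 bases against 1649 bases.

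The 15 libraries held 16003876 to 20619828 normalized counts. All 3 leaf markers, RBCS1A, RCA and LHCB1.3, were high in every condition, with means of 142803 to 406602. At R60, where the early pulse genes were tested, RCA averaged 142803 and LHCB1.3 227869, against 346125 and 406602 at GL. Of the markers of other organs, CRA1 and NRT2.1 were below 1 in every condition, AG was 15.3 to 29.2, and the seed gene SESA1 was 84.0 at R15 and 39.8 at R60, against 0 at GL. The guard cell markers FAMA and MYB60 averaged 94.5 and 36.2 at HL15, against 196 and 86.0 at GL, and 194 and 88.1 at R60. The phloem marker SUC2 averaged 2347 at GL and 2158 at HL15, was lowest at HL60 with 1207, and averaged 1320 and 1952 in the R15 and R60 libraries. In whole leaves, fewer cells of a type and less RNA per cell cannot be told apart. The part of these shifts in the results was not tested.

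The 3 HL15 libraries did not vary like those of the other conditions. Among genes with 1 transcript, whose whole reads can be recovered from the values, HL15 replicates 2 and 3 differed by a chi-square per degree of freedom of 1.54, against 34.8 to 41.2 for HL15 replicate 1 with either of them and 3.63 to 91.0 for all pairs within the other conditions. The limit from sampling alone was 1.02, which the pair exceeded, and it was kept as 2 samples as labelled. Repeat libraries of the same RNA can exceed this limit too, and whether the pair came from separate plants was not tested. For the 43 early pulse genes among them, the median chi-square of this pair was 0.504, against 307 and 237 for the pairs with replicate 1. The spread at HL15 is therefore set by replicate 1 against the other two. Counting replicates 2 and 3 as 1 sample gave 91 genes by the same rule, of which 85 were among the 87, and leaving out replicate 1 gave 87 genes, of which 76 were among the 87. Leaving out HL60 replicate 1, the library that differed most from its pair, gave 83 genes, all among the 87.

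At HL15 the 87 genes together made up 5.33, 3.30 and 3.30% of the normalized counts of the 3 libraries, against 0.251, 0.230 and 0.222% at GL. Their share was 0.645, 1.21 and 0.768% at HL60, 0.176, 0.166 and 0.154% at R15, and 0.0832, 0.108 and 0.123% at R60. The lowest share of all was thus reached in the last condition, below that of GL. For single genes, the HL15 mean was 4.04 to 475 times the GL mean plus 1, with a median of 15.5, and 2.07 to 48.8 times the HL60 mean, with a median of 4.80.

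**Figure D1:**
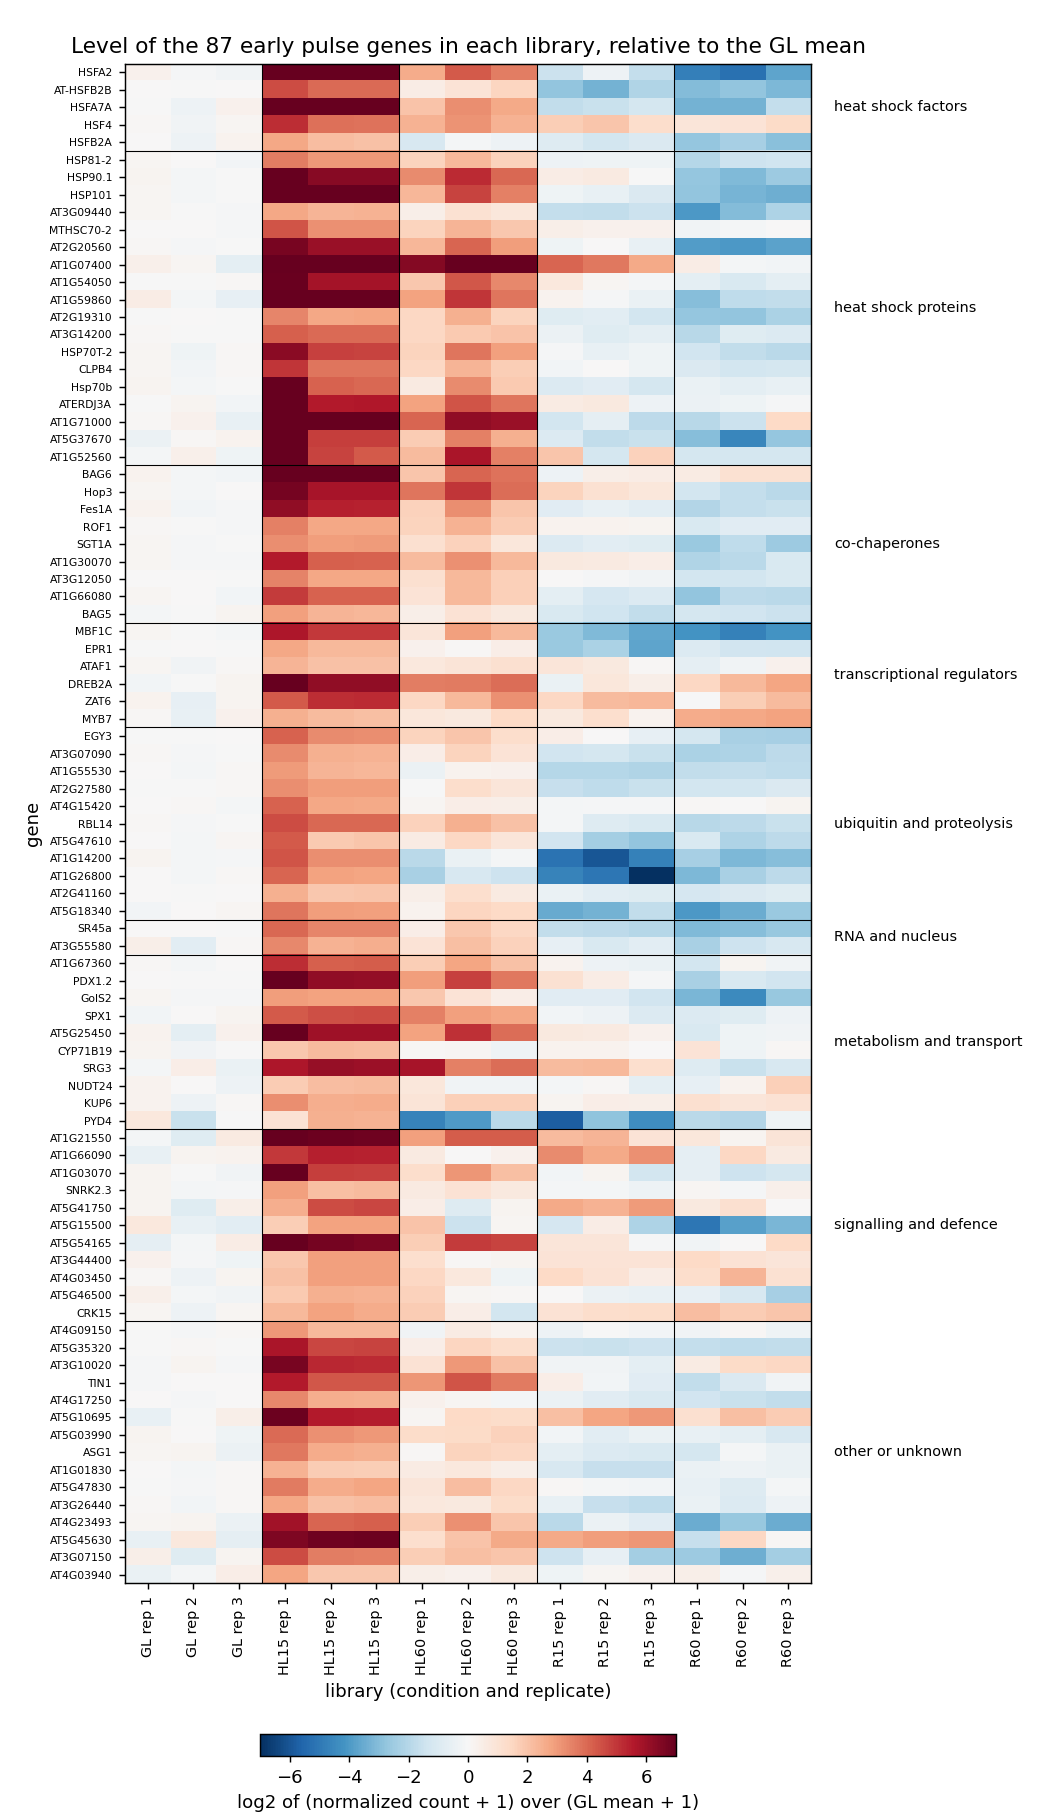
Level of each of the 87 genes (down the page, by group and by HL15 mean within a group) in each of the 15 libraries (across). Colour is the log2 of the normalized count plus 1 over the GL mean plus 1, and colours stop at -7 and 7. The 3 HL15 libraries are red in all genes, HL60 is weaker in most, and R60 is blue in most of the chaperone system and of ubiquitin and proteolysis.

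Every HL15 library lay above every GL library in all 87 genes, above every HL60 library in 83 and above every R15 library in 86. Among all genes tested, 22.8, 22.1 and 28.9% had their HL15 libraries wholly above those of GL, HL60 and R15. At HL60 the mean was still above GL in 82 genes and at least 2 times GL in 60. At R15 it was below GL in 56 genes, at most 0.5 times GL in 24 and at least 2 times GL in 13. The HL60 means of most of these genes were thus above GL, and the R15 means of most were below it. These counts of means use values that chose the genes, and shares over all genes are not given for them.

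Genes lay close on both sides of the limits, except that on R15. CRK15, a receptor-like kinase, was just inside the minimum with an HL15 mean of 106.1, and BGLU11, a beta-glucosidase, just outside it with 81.8. The HL15 mean was 4.04 times GL plus 1 for AT1G01830, just inside, and 3.96 times for BI1, just outside. It was 2.07 times HL60 for TIN1, just inside, and 1.97 times for PFK3, just outside. Relative to R15, where the limit was 2, the nearest gene inside was CRK15 at 2.68 times and the nearest outside was AT4G19520 at 1.5 times, with none between them among genes that met the other limits.

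Within the chaperone system, the HL15 mean was a median of 49.1 times GL plus 1. HSP81-2, a cytosolic HSP90, HSP90.1 and the disaggregase HSP101 had the highest HL15 means. HSP101 had 443, 368 and 385 normalized counts at GL, 109773, 55126 and 55137 at HL15, 2001, 10719 and 4561 at HL60, 328, 274 and 198 at R15, and 58.8, 40.7 and 36.6 at R60. Its HL15 libraries were far above all others, and its R60 libraries were below all GL libraries. BAG6, a calmodulin-binding protein of the BAG family of co-chaperones, had 203, 154 and 151 at GL, 74635, 40645 and 40984 at HL15, 640, 2843 and 2402 at HL60, 131, 223 and 241 at R15, and 257, 349 and 352 at R60. BAG6 was the co-chaperone with the largest ratio of HL15 to GL plus 1, at 306.

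The 5 heat shock factors were HSFA2, HSFA7A, HSF4, HSFB2A and AT-HSFB2B. HSFA2, an activator that prolongs the heat stress response, had 161, 122 and 112 normalized counts at GL, 38233, 22243 and 22258 at HL15, 794, 2615 and 1592 at HL60, 45.3, 104 and 40.3 at R15, and 3.72, 2.5 and 9.27 at R60. The decline from HL15 was steepest in HSFA7A, with 38.6, 95.2 and 61.2 at HL60 against 5834, 1898 and 1781 at HL15, a ratio of means of 48.8. HSF4, also known as HSFB1, had 144, 117 and 149 at GL, 5029, 2019 and 1910 at HL15 and 251, 264 and 350 at R60, so that its R60 libraries were all above GL.

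The 6 transcriptional regulators outside the heat shock factors took different courses after the pulse. MBF1C, a coactivator that controls part of the heat response, is a gene of 1 exon on chromosome 3 (8918267 to 8919358). It had 559, 511 and 469 normalized counts at GL, 25680, 15725 and 15615 at HL15, 936, 3829 and 2466 at HL60, 84.9, 60.4 and 40.1 at R15, and 26.9, 18.3 and 26.9 at R60. Both sets of recovery libraries were below all GL libraries. DREB2A, a factor of drought and heat responses, had 8.35, 9.39 and 11.1 at GL, 1443, 781 and 777 at HL15, 128, 133 and 158 at HL60, 6.61, 17.5 and 13.2 at R15, and 28.5, 51.1 and 72.2 at R60. Its R15 libraries overlapped with GL and its R60 libraries were all above both.

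ZAT6, a zinc finger repressor, had 32.2, 17.9 and 31.1 normalized counts at GL, 553, 1009 and 1032 at HL15, 74.2, 134 and 259 at HL60, 75.2, 127 and 141 at R15, and 26.8, 91.8 and 128 at R60. Of its R60 libraries, replicate 1 lay within the range of GL and the other two above it. MYB7, a repressor of phenylpropanoid genes, was the 1 member of 87 whose highest mean was not at HL15. It had 37.7, 24.9 and 44.3 at GL, 208, 167 and 159 at HL15, 61.4, 56.9 and 96.0 at HL60, 58.1, 81.6 and 41.9 at R15, and 218, 240 and 260 at R60. The R60 libraries exceeded all HL15 libraries, and the HL60 and R15 libraries lay between GL and HL15 or within GL.

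EPR1, a MYB-like factor related to the clock and to phytochrome responses, had 499, 506 and 492 normalized counts at GL, 3267, 2396 and 2410 at HL15, 609, 523 and 679 at HL60, 82.6, 107 and 38.0 at R15, and 252, 194 and 191 at R60. Of the 31-base words in its transcript, 52.5% also occurred in other genes, most of all AT3G10113, so its level is uncertain. ATAF1, a NAC factor of abscisic acid and stress responses, had an HL15 mean of 1210, against 267 at GL, and its R60 mean of 242 lay near GL.

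**Figure D2:**
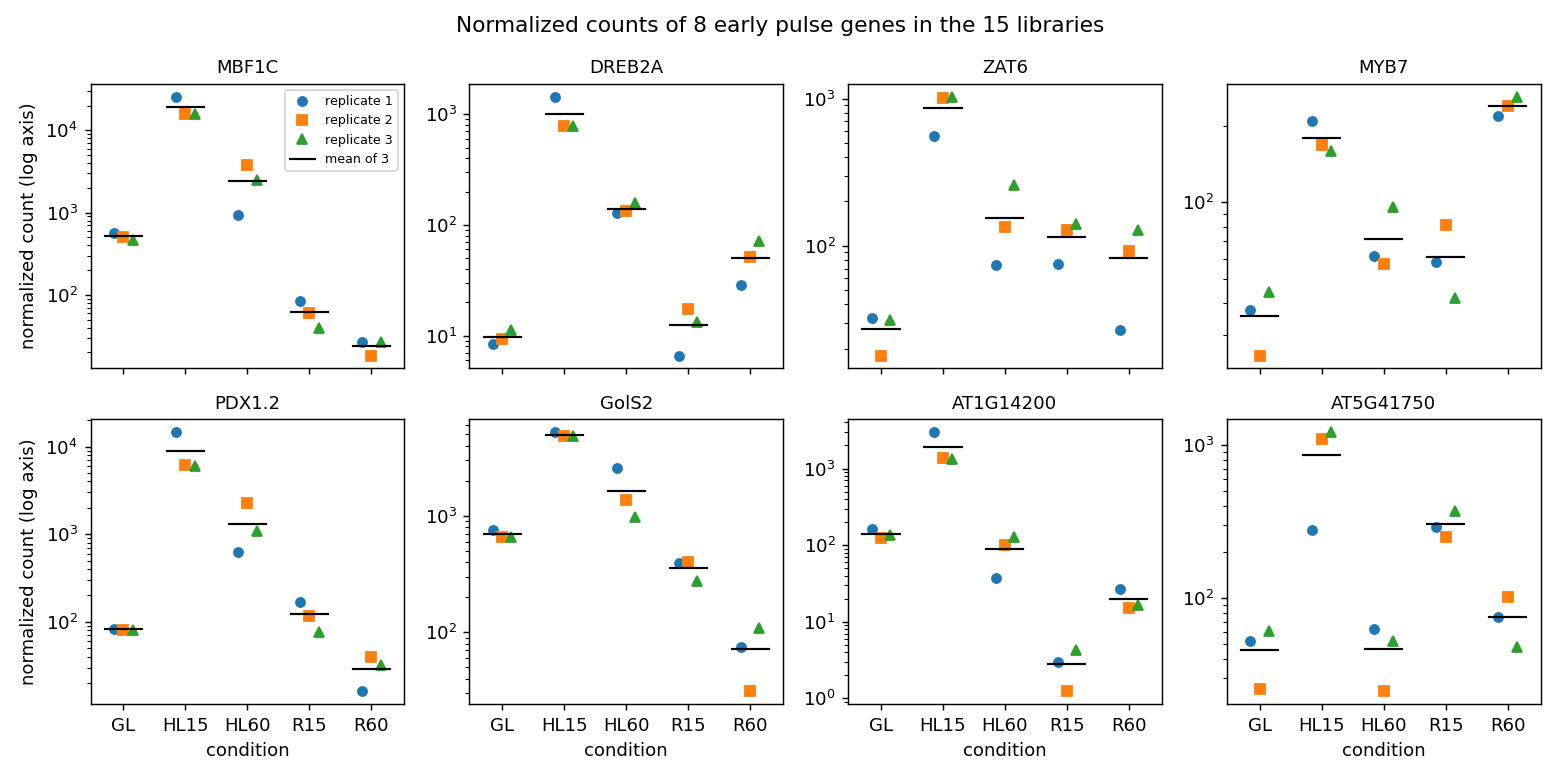
Normalized counts (log axis) of 8 genes outside the heat shock proteins and factors in the 5 conditions, with a marker for each replicate and a line for the mean of 3. All 8 are high at HL15. MBF1C, PDX1.2, GolS2 and AT1G14200 are below GL at R60, DREB2A and MYB7 are above it, and AT5G41750 is above GL at R15.

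The 11 genes of ubiquitin and proteolysis had a median HL15 mean of 2458, and 10 of them had an R15 mean below GL, 7 at most 0.5 times GL. The R15 and GL values took part in the choice of the genes, and shares over all genes are not given. The deepest decline was in a pair of single-exon RING genes, the RING domain being the part of a ubiquitin ligase that recruits the conjugating enzyme. AT1G14200 had 161, 126 and 135 normalized counts at GL, 2968, 1366 and 1339 at HL15, 37.6, 99.6 and 127 at HL60, 3.01, 1.24 and 4.30 at R15, and 26.8, 15.2 and 16.7 at R60. AT1G26800 had 159, 143 and 164 at GL, 2661, 1087 and 1072 at HL15, 31.7, 71.1 and 57.0 at HL60, 5.01, 3.71 and 0 at R15, and 16.9, 31.9 and 42.2 at R60. In AT1G26800 all HL60, R15 and R60 libraries were below all GL libraries, and in both genes R15 was the lowest condition.

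Other members of this group declined less. EGY3, a chloroplast membrane protein related to site-2 proteases, had 1004, 1023 and 1073 normalized counts at GL, 17859, 10130 and 10048 at HL15, 3048, 4028 and 2408 at HL60, 1412, 1061 and 690 at R15, and 448, 215 and 207 at R60. AT3G07090, annotated as a thiol peptidase of the PPPDE family, had an HL15 mean 6.96 times GL plus 1 and R15 libraries of 482, 506 and 410, against 1301, 1129 and 1194 at GL. AT4G15420, of the UFD1 family that acts in ubiquitin-dependent degradation, stayed near GL, with 249, 256 and 254 at R15 and 279, 285 and 248 at GL. EGY3 was the 1 gene of 11 whose R15 mean was not below GL.

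The 2 genes of RNA and the nucleus were SR45a and AT3G55580. SR45a, a splicing factor with an RNA-binding domain, had 1116, 1104 and 1073 normalized counts at GL, 17965, 11605 and 11643 at HL15, 1518, 3986 and 3011 at HL60, 330, 310 and 274 at R15, and 130, 138 and 176 at R60. Its recovery libraries were all below all GL libraries. AT3G55580, of the RCC1 family, reached a mean of 344 at HL15 with 63.2, 27.9 and 50.9 at GL.

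In metabolism, PDX1.2 had the largest ratio of HL15 to GL plus 1, at 107. PDX1.2 is a catalytically inactive partner of the PDX1 enzymes of vitamin B6 synthesis, encoded by a gene of 1 exon on chromosome 3 (5443950 to 5445329). It had 83.2, 80.8 and 81.0 normalized counts at GL, 14544, 6111 and 5976 at HL15, 621, 2258 and 1082 at HL60, 169, 117 and 76.3 at R15, and 16.1, 39.1 and 32.2 at R60. R15 overlapped with GL, and R60 was below it.

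GolS2 makes galactinol, the donor for raffinose. It had 762, 653 and 664 normalized counts at GL, 5213, 4861 and 4858 at HL15, 2598, 1355 and 969 at HL60, 396, 404 and 277 at R15, and 74.0, 31.1 and 109 at R60. Each condition after HL15 was lower than the one before, with no overlap from HL60 on. AT5G25450, annotated as a small subunit of a ubiquinol oxidase complex, reached 6442, 2333 and 2359 at HL15, against 43.9, 22.6 and 45.5 at GL. SPX1, which senses phosphate status, had 3656, 4214 and 4316 at HL15 and 160, 186 and 207 at GL, and SRG3, a glycerophosphodiester phosphodiesterase, had 838, 1154 and 1079 at HL15 and 14.4, 21.9 and 11.3 at GL.

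PYD4, annotated as an aminotransferase, had the lowest HL60 level relative to GL of the 87 genes. It had 89.2, 17.2 and 52.2 normalized counts at GL, 108, 307 and 287 at HL15, 1.14, 2.51 and 13.3 at HL60, 0, 6.63 and 1.65 at R15, and 13.5, 12.2 and 42.3 at R60. Its GL libraries differed by several fold, and HL60 and R15 were below all of them. AT1G67360, a rubber elongation factor-like protein, had the highest HL15 level of the group, with 21684, 11040 and 11390, against 649, 550 and 607 at GL.

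The 11 genes of signalling and defence included immune receptors that were high in both 15 min conditions. AT5G41750, a TIR-NBS-LRR receptor gene, had 52.0, 25.3 and 60.8 normalized counts at GL, 277, 1094 and 1206 at HL15, 62.8, 24.6 and 52.5 at HL60, 293, 249 and 372 at R15, and 75.5, 102 and 47.7 at R60. AT1G66090, a TIR-NBS gene, had 24.4, 39.9 and 41.5 at GL, 1115, 1564 and 1504 at HL15, 54.4, 36.1 and 44.3 at HL60, 355, 230 and 331 at R15, and 22.3, 99.8 and 54.4 at R60. In both genes HL60 overlapped with GL and every R15 library was above every HL60 library. AT5G10695, a gene of the group of other or unknown function, had the same order, with 21.7, 52.3 and 49.4 at HL60 and 85.9, 137 and 169 at R15, after 2399, 947 and 925 at HL15. These were the 3 of the 87 genes whose R15 mean was at least 2 times HL60, and 8 had an R15 mean above HL60. Of the 31-base words in the AT5G41750 transcript, 18.7% also occurred in other genes, most of all AT5G41740, so reads may be split between them.

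A calcium-binding gene, an elicitor-responsive gene and a gene of a cell death suppressor family had low GL levels. AT1G21550, a calcium-binding EF-hand protein, had 12.2, 6.98 and 20.7 normalized counts at GL, 2764, 1660 and 1628 at HL15, 103, 271 and 271 at HL60, 65.2, 73.0 and 26.9 at R15, and 24.1, 15.2 and 25.6 at R60. AT5G54165, annotated as an Avr9/Cf-9 rapidly elicited protein, had 1.11, 1.99 and 3.77 at GL and 805, 336 and 311 at HL15. AT1G03070, of the Bax inhibitor family, had 20.4, 17.3 and 14.4 at GL and 2584, 531 and 499 at HL15, and 42.5, 158 and 78.5 at HL60. In these 3 genes the HL15 libraries were at least an order of magnitude above GL.

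Among the 15 genes of other or unknown function, AT5G35320 had 190, 200 and 186 normalized counts at GL, 10207, 4956 and 5026 at HL15, 268, 555 and 454 at HL60, 66.2, 64.3 and 69.9 at R15, and 60.7, 54.3 and 57.8 at R60. AT3G10020, a protein of unknown function, had 105, 128 and 105 at GL and 11305, 4385 and 4206 at HL15. AT4G09150, a T-complex 11 family protein, differed in that it had 1221, 1179 and 1323 at GL, 10258, 6100 and 6071 at HL15 and 1052, 1331 and 992 at R60. Its R60 libraries lay on both sides of the GL libraries, 2 below and 1 above. AT5G45630, annotated as a senescence regulator, had 1.11, 3.99 and 0.942 at GL, 283, 335 and 350 at HL15, 5.94, 10.9 and 17.9 at HL60 and 18.0, 22.3 and 24.7 at R15.

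HL15 replicate 1 was not placed alike in all groups of genes, which is given as a count, with no test between groups. It was the highest of the 3 HL15 libraries in 73 genes and the lowest in 14. It was the highest in all 32 genes of the chaperone system and in all 11 of ubiquitin and proteolysis. The 14 genes in which it was the lowest comprised 7 of 11 genes of signalling and defence, 5 of 10 of metabolism and transport, ZAT6 and AT5G45630. Among them were AT5G41750, AT1G66090, AT3G44400, AT4G03450, CRK15, SPX1, SRG3, CYP71B19 and NUDT24. At HL60, replicate 1 was the lowest library in 66 of the 87 genes and the highest in 12, of which 7 were genes of signalling and defence.

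**Figure D3:**
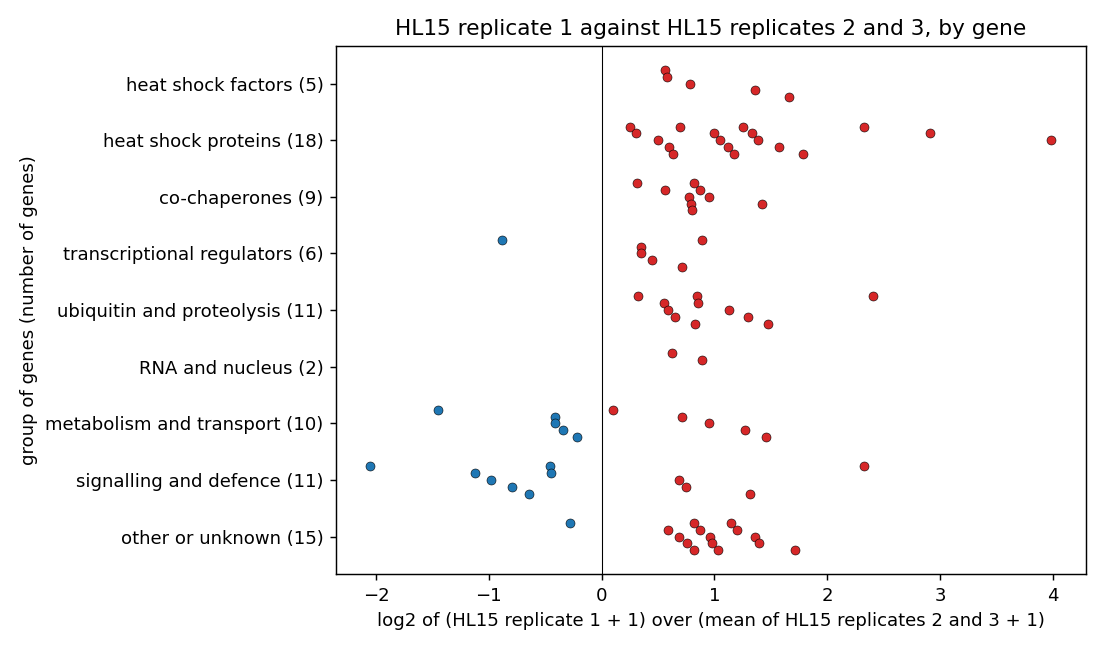
Log2 of the normalized count plus 1 in HL15 replicate 1 over the mean of HL15 replicates 2 and 3 plus 1 (across), for each of the 87 genes, by group (down). Red is above 0 and blue below. All 32 chaperone system genes are red, and 7 of the 11 genes of signalling and defence are blue. Shares over all genes are not given.

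The level after the pulse was tested at R60 for a difference from the GL libraries, which the rule had also used. The rule favours low GL values, which can raise the change from GL to R60. A gene not called is not thereby shown to have returned to its GL level. All 20512 genes entered a limma fit of log2 values, with a pseudocount of 1, and a call needed at least a 2-fold change and a Benjamini-Hochberg adjusted p under 0.05. Of the 87 genes, 44 were lower at R60 than at GL (50.6%), 9 were higher (10.3%) and 34 were not called. Of all genes tested, 8.53% were lower and 10.7% were higher. By the adjusted p alone, without the fold minimum, 47 of the 87 genes were lower (22.1% of all genes) and 9 higher (21.4%). The median log2 fold change was -1.16 over the 87 genes and -0.02 over all genes. All R60 libraries were below all GL libraries in 56 of the 87 genes, against 28.8% of all genes, and above them in 10, against 27.6%.

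**Figure D4:**
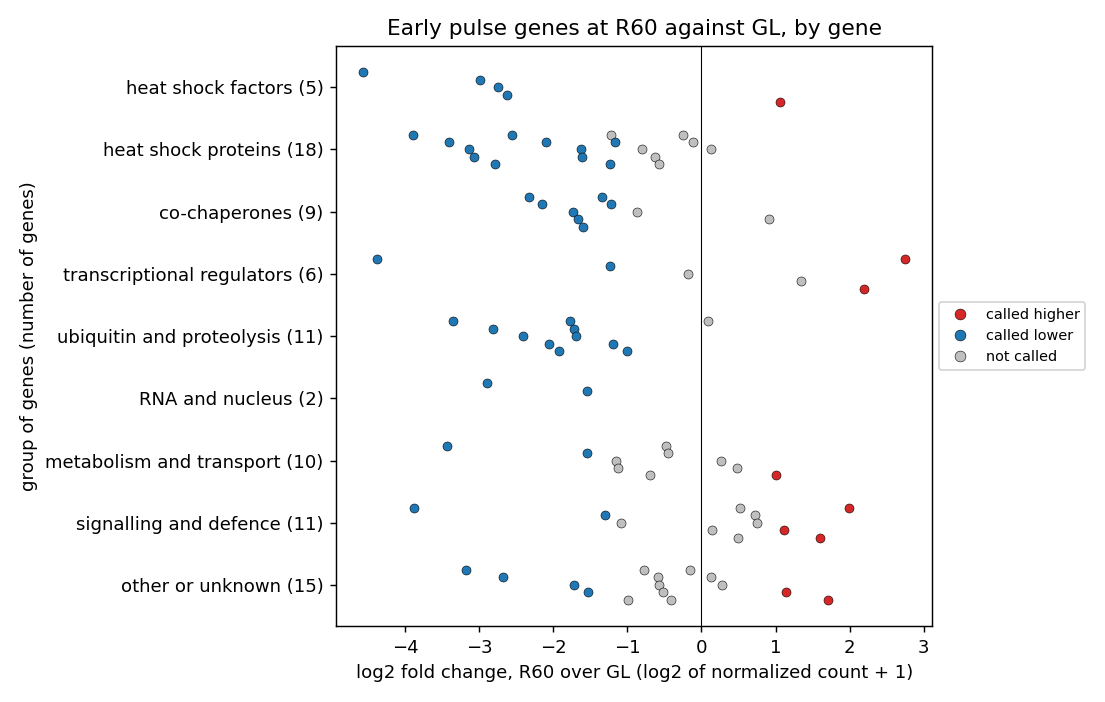
Log2 fold change of R60 over GL (across) for each of the 87 genes, by group (down), coloured by the limma call. In ubiquitin and proteolysis 10 of 11 genes are called lower, and 3 of 11 genes of signalling and defence are called higher.

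The chaperone system had 22 lower and 1 higher of 32 genes, with a median of -1.62. The 55 other genes had 22 lower and 8 higher, with a median of -0.70. The difference between these groups was not tested. The largest fitted change was that of HSFA2, which fell by 4.56 on the log2 scale (SE 0.46, limma Benjamini-Hochberg adjusted p = 2.16e-06), and was below GL in 3 of 3 libraries. AT-HSFB2B, HSFB2A and HSFA7A were lower too, with 0, 0 and 2.22 normalized counts at R60 in HSFA7A, against 8.87, 6.98 and 11.3 at GL. HSF4 was the single heat shock factor that was higher, by 1.06 (SE 0.31, limma adjusted p = 0.0131). Leaving out GL replicate 2 gave 0.96, and leaving out R60 replicate 3 gave 0.92, both short of the call. AT3G14200, a DnaJ protein, fell by 1.24 and was -0.89 without R60 replicate 1, short of the fold minimum. BAG6 was not called at 0.91 (limma adjusted p = 0.106), although its 3 R60 libraries were above GL.

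In ubiquitin and proteolysis, 10 of 11 genes were lower, with a median of -1.77. AT1G14200 fell by 2.82 on the log2 scale (SE 0.44, limma adjusted p = 0.000117), AT1G26800 by 2.40 (SE 0.57, limma adjusted p = 0.0034) and AT5G18340, an ARM repeat protein, by 3.35 (SE 0.49, limma adjusted p = 6.84e-05). EGY3 fell by 1.93 (SE 0.32, limma adjusted p = 0.000182). Its R60 libraries were all below GL, as were those of the other 9 genes called. AT4G15420 was the gene not called, at 0.09. The RING gene AT5G47610 fell by 1.69 (limma adjusted p = 0.0194) and missed the threshold without GL replicate 3, R60 replicate 2 or R60 replicate 3 (limma adjusted p = 0.0569, 0.0776 and 0.0557). AT2G41160, a ubiquitin-associated domain protein, fell by 1.01, just past the fold minimum, and was -1.0, -0.99 and -0.92 without GL replicate 1, GL replicate 3 and R60 replicate 1, all short of it. Both genes of RNA and the nucleus were lower, SR45a by 2.90 (SE 0.27, limma adjusted p = 8.83e-07) and AT3G55580 by 1.54 (SE 0.38, limma adjusted p = 0.00443).

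Transcriptional regulators split. MBF1C fell by 4.38 on the log2 scale (SE 0.40, limma adjusted p = 8.05e-07) and EPR1 by 1.24 (SE 0.27, limma adjusted p = 0.00188). MYB7 rose by 2.75 (SE 0.27, limma adjusted p = 1.47e-06) and DREB2A by 2.19 (SE 0.36, limma adjusted p = 0.000187), with 3 of 3 libraries above GL in both. ZAT6 was not called at 1.35 (SE 0.53, limma adjusted p = 0.0515), and it was past the threshold at 2.01 without R60 replicate 1 (limma adjusted p = 0.00324). ATAF1 was not called at -0.18.

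In metabolism and transport, GolS2 fell by 3.43 on the log2 scale (SE 0.37, limma adjusted p = 4.6e-06). PDX1.2 fell by 1.54 (SE 0.45, limma adjusted p = 0.0128) and, without R60 replicate 1, was -1.18 (limma adjusted p = 0.0647). KUP6 rose by 1.01 (SE 0.23, limma adjusted p = 0.00252), with 260, 208 and 236 normalized counts at R60 and 137, 91.7 and 122 at GL. It was 0.85 without GL replicate 2 and 0.93 without R60 replicate 1, short of the fold minimum. The other 7 genes of the group were not called.

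Signalling and defence had 3 higher and 2 lower genes of 11 and a median of 0.52. CRK15 rose by 1.99 on the log2 scale (SE 0.52, limma adjusted p = 0.00586), with 79.4, 60.7 and 68.9 normalized counts at R60 and 18.8, 13 and 18.8 at GL. AT4G03450 rose by 1.60 (SE 0.42, limma adjusted p = 0.00654), with 124, 275 and 111 at R60 and 55.6, 39.8 and 59.2 at GL. The TIR-NBS-LRR gene AT3G44400 rose by 1.11 (SE 0.30, limma adjusted p = 0.00726) and was 0.97 without GL replicate 3 and 0.96 without R60 replicate 1, short of the fold minimum. In all 3 genes the R60 libraries were above all GL libraries. AT5G15500, an ankyrin repeat gene, fell by 3.88 (SE 0.81, limma adjusted p = 0.00135), with 1.82, 5.70 and 9.06 at R60 and 158, 65.1 and 56.2 at GL. AT5G46500 was lower, with 27.5, 18.5 and 7.44 at R60 and 51.8, 36.5 and 33.9 at GL. Its change of -1.29 was -1.11, -1.36 and -0.80 without GL replicate 1, GL replicate 2 and R60 replicate 3, and none of these passed the threshold (limma adjusted p = 0.0994, 0.0517 and 0.143). AT1G66090 was not called at 0.52 and was 1.08 without R60 replicate 1 (limma adjusted p = 0.0112), which passed.

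Of the genes of other or unknown function, 4 were lower and 2 higher of 15. AT5G35320 fell by 1.72 on the log2 scale (SE 0.26, limma adjusted p = 9.06e-05) and AT4G17250, of unknown function, by 1.53 (SE 0.21, limma adjusted p = 4.07e-05). AT4G23493 had 0, 0.798 and 0 normalized counts at R60, against 11.1, 12 and 7.54 at GL. TIN1 was not called at -0.98 and passed at -1.34 without R60 replicate 3. AT3G07150 had 0.892, 0 and 1.11 at R60, against 13.3, 4.99 and 11.3 at GL. AT5G10695 rose by 1.71 (SE 0.43, limma adjusted p = 0.00453), with 43.5, 85.9 and 68.6 at R60 and 13.3, 18.8 and 26.3 at GL. AT3G10020 was at the edge of the call, at 1.14 (SE 0.44, limma adjusted p = 0.0479), and the adjusted p was 0.0729 to 0.141 without GL replicate 1, GL replicate 2, GL replicate 3, R60 replicate 2 or R60 replicate 3, and 0.0505 with HL15 replicates 2 and 3 counted as 1 sample.

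The pulse can be set beside other rapid stress genes. A list of 47 genes of rapid responses (AP2/ERF and zinc finger factors, WRKY factors, touch and calcium genes, RNA turnover, kinases and ubiquitin ligases) held 2 of the 87, DREB2A and ZAT6. This list and that of heat stress genes below were chosen with earlier results of these data known. Their counts beside all genes are therefore no independent comparison. Of the other 45 genes, all tested with limma as above, 27 were called higher at HL15 (4.79% of all genes) and 12 at HL60 (7.76%). During recovery, 39 were called higher at R15 (10.9% of all genes) and 23 at R60 (10.7%). None was called lower, whereas the share of all genes called lower was 4.66% at HL15, 7.8% at HL60, and 8.94% and 8.53% in the R15 and R60 comparisons. These comparisons share the GL libraries. With HL15 replicates 2 and 3 counted as 1 sample, 23 of the 45 genes were called higher at HL15 (3.61% of all genes), all among the 27. The highest condition mean of the 45 genes, which leave out the 2 early pulse genes, was at R15 in 32, HL15 in 7 and R60 in 6. RRTF1, an ERF factor, averaged 373 at HL15 and 3874 at R15, against 1.66 at GL, and ZAT10, a relative of ZAT6, averaged 659 at HL15 and 3860 at R15, against 18.5 at GL. ZAT6 averaged 865 at HL15 and 114 at R15, against 27.1 at GL. The rule required this order of ZAT6, so its contrast with ZAT10 is a description. A list of 14 heat stress genes held 9 of the 87 genes. The other 5, HSFA3, HSFA7B, ROF2, APX2 and GolS1, were called higher at both HL15 and HL60. Of these, APX2 and GolS1 encode enzymes. At HL15, 4 of the 5 were called when replicates 2 and 3 were counted as 1 sample.

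Several members overlap other annotated genes or share sequence with near copies. Whether the reads were assigned by strand is not given in the sources used here, and reads of a gene and of one overlapping it on the other strand cannot then be told apart. An overlapping gene on the opposite strand was itself among the genes tested for, among others, HSP101, PDX1.2, EGY3, AT1G14200, AT5G10695 and DREB2A. Apart from EPR1 and AT5G41750, CYP71B19 shared 32.8% of its 31-base words with other genes, most of all AT3G26180. For HSP81-2 the share was 29.0%, most of all with AT5G56010. For AT3G44400 it was 25.5%, most of all with AT3G44630, and for AT5G46500 23.6%, most of all with AT5G46260. The levels of these genes are likewise uncertain.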

How the data were processed

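Leaf RNA of 15 libraries was analysed, 3 for each of GL, HL15, HL60, R15 and R60, grouped by the sample labels. The submitters' processing notes name Salmon 0.12, DESeq2 and TAIR10. The values deposited by the authors are a signal per gene and library, namely normalized counts. For genes with 1 transcript, the values look like reads scaled by 1 factor in each library, which is inferred. Those of genes with more than 1 transcript mostly do not, and the values do not show why. How the normalization was done is not given in the sources used here. For genes with 1 transcript, 100% of values of up to 200 reads were whole multiples of the smallest value (tolerance 0.01), against 7.75 to 9.42% for genes with several, so no count test was run. Total reads were estimated at 14403180 to 28102714 per library.

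The 1081 genes with a sum under 10 were left out of tests, and all 87 early pulse genes passed. The log2 of the value plus a pseudocount of 1, a scale that understates changes of low genes, was modelled on the 15 libraries together (R 4.3.3, limma 3.58.1), using 1 coefficient per condition, a variance trend and no block, and p-values were adjusted by Benjamini-Hochberg. The fit was tested on simulated data. An exact permutation test of 3 against 3 could not go below 0.1, and none was run. Coordinates, exons and sequences come from RefSeq TAIR10.1, joined by locus tag, which 21390 genes had. Gene names are those of the table.

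The early pulse genes, their groups and the lists were chosen with earlier results of these data known, and the groups were assigned from annotation after condition means had been seen. Genes outside the heat shock genes were named by rank. The ranks took 12 genes by HL15 mean and 10 by ratio to GL plus 1. They also took 6 by ratio to HL60 or R15, and 5 at each end at R60. All transcription factors, members of the lists, the nearest threshold neighbours and the top 3 heat shock genes were added. Further members were named to describe their groups. The co-chaperones Hop3 and Fes1A met the ranks and ROF1 was on a list, but they were not described singly. Alternatives changed the rule's limits, pseudocount, normalization, filter, block, fit, call and each library in turn. Counting HL15 replicates 2 and 3 as 1 sample, the motif window before the start codon and the motif in either order were added after seeing the data.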

Additional observations from a re-analysis of the deposited data

How the results depend on the processing

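The number of early pulse genes was 61 to 116 under other limits, medians, upper quartile normalization and the merged HL15 pair, except that 4 times HL60 and R15 in place of 2 left 52. Leaving out 1 library gave 83 to 92. At R60, the count of lower genes was 34 to 47 under all alternatives and 41 to 43 when 1 library was left out. The count of higher genes was 7 to 10, except for 2 when changes were tested against 1.5-fold (treat), and 6 to 9 when 1 library was left out. Counting HL15 replicates 2 and 3 as 1 sample gave 8 higher and 44 lower, all among those reported. The median log2 fold change of -1.16 was -1.0 with a pseudocount of 5, -1.28 with quantile normalization and -1.1 to -1.22 with 1 library left out. The numbers of the replicates showed no pairing of the R60 and GL libraries: deviations of libraries of the same number correlated at -0.06, 0.03 and 0.02. Pairing by number among the other conditions was not checked. With the replicate block, 9 genes were higher and 44 lower, with a median of -1.16. The counts alone do not show that the genes were the same: AT3G10020 missed the threshold with the block (limma adjusted p = 0.0571) and ZAT6 passed it (limma adjusted p = 0.0115).

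Among single genes at R60, 1492 values kept their direction and side of the threshold, 50 in 18 genes were no longer called, 13 in 9 genes were newly called and 11 in 7 genes changed sign. None of the 7 was called in the fit reported. With 1 library left out, AT5G54165 was -0.017 to 0.81, AT5G45630 -0.61 to 0.91 (also negative at -0.06 without GL replicate 1 and -0.12 without GL replicate 3), ATAF1 -0.42 to 0.034, AT1G07400 -0.18 to 0.34 (also negative at -0.11 without R60 replicate 1), AT1G71000 -1.68 to 0.0071, CYP71B19 -0.079 to 0.53 and NUDT24 -0.14 to 0.99. Quantile normalization gave AT1G07400 -0.024. The cause was not tested. The 5 genes MYB7, DREB2A, CRK15, AT5G10695 and AT4G03450 were called higher with any 1 library left out. Tested against 1.5-fold, CRK15, AT5G10695 and AT4G03450 missed the threshold (limma treat adjusted p = 0.0563, 0.0641 and 0.0931). Genes of a few counts at R60, such as HSFA7A and AT4G23493, are limited by depth, and their fitted fold changes depend on the pseudocount.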
